A study of Oryza sativa Japonica Group with 74 samples.

Results

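RAB16A (Os11g0454300, chromosome 11), LEA3 (Os05g0542500, chromosome 5) and SALT (Os01g0348900, chromosome 1) are rice genes known for high transcript levels in plants short of water. They were picked by identifier and make up 3 of the 37849 genes measured. RAB16A, which the RefSeq gene table calls RAB21, encodes a dehydrin, a small hydrophilic protein that stays soluble as cells dry out. LEA3 encodes a late embryogenesis abundant protein of group 3, and SALT a mannose-binding lectin of the jacalin family.

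When water is short, plant cells raise abscisic acid (ABA). ABA bound to PYL receptors holds back protein phosphatases of the PP2C type, which frees SnRK2 kinases, named SAPK in rice, to activate bZIP transcription factors. Those factors bind ABA response elements in promoters such as that of RAB16A, while DREB and NAC factors act on drought genes in part without ABA. The genotypes studied touch light and clock inputs: ELF3 and LUX belong to the Evening Complex, a repressor of transcription that is active around dusk and in the night, and phyB is a red light receptor. The labels name no drought or salt treatment for any library.

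RNA came from whole rice plants 21 days old, all germinated at 28 °C per the labels. Libraries were made from Oself3-1 -/- Oself3-2 -/- plants (elf3-1 elf3-2), OsphyB-/- plants (phyB), OsLUX-/- plants (lux) and wild type (WT, the japonica cultivar Nipponbare), under long days (LD, 14 h of light) or short days (SD, 10 h). Times are hours after lights on (ZT). WT was sampled at ZT2, 6, 10, 14, 18 and 24 in both day lengths, elf3-1 elf3-2 and phyB at ZT6, 14 and 18 in both, and lux at ZT14 in SD alone. The labels do not say how the alleles were made, how many lines stand behind a genotype, or whether a library is 1 plant or a pool. The transcripts of the mutated genes do not check the labels, since they were measured in the mutants too (ELF3-1 at 29.8 to 67.4 TPM in elf3-1 elf3-2 and 47.2 to 146 TPM in WT). Nothing in the labels says that replicates are separate plants, so p-values measure the spread between these libraries.

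Of 74 libraries, 17 were left out: the first replicate at ZT6 and ZT14 in WT, phyB and elf3-1 elf3-2, that at ZT10 in WT, and the third replicate in WT at ZT2 and at ZT24, in both day lengths where present. In their expression over 3000 genes, 16 of these 17 lay nearer to another group than to the group on their label, against 0 of the 57 libraries kept. Distances were taken to kept libraries alone, which favours the kept ones, and the 17 were chosen with earlier results of these data known. These counts therefore describe the libraries and do not test the choice. The left-out libraries labelled phyB replicate 1 sat at 0.97 to 1.06 on a scale from WT and phyB at ZT18 (0) to elf3-1 elf3-2 at ZT18 (1). Those labelled elf3-1 elf3-2 sat at 0.12 to 0.37 on the same scale, against 1.00 to 1.15 for kept elf3-1 elf3-2 libraries at ZT6 and ZT14. The left-out WT ones at ZT6 and ZT14 sat at 0.94 to 1.00 on the matching scale from WT and elf3-1 elf3-2 (0) to phyB (1). Kept were 14 libraries of elf3-1 elf3-2, 14 of phyB, 3 of lux and 26 of WT, in 25 groups of 2 or 3, with totals of 25.7 to 51.8 M counts each. Many calls at single times did not pass with all 74 libraries, and those values are given with the results.

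Levels, scaled for transcript length and depth, are given in TPM. SALT was by far the most abundant of the 3, with 21.7 to 468 TPM over the 57 libraries and a median of 63.5 TPM, above 91.3% of all genes. LEA3 ranged over 0.134 to 36.1 TPM (median 4.56) and RAB16A over 0 to 18.2 TPM (median 3.45), above 54.4% and 51.7% of all genes. RAB16A had 0 counts in 2 WT libraries, at ZT2 and ZT24 in LD, and at most 293 counts in any library, against 333 to 6842 counts of SALT, so its values carry more counting error. A count of 0 in these libraries allows at most 0.0579 to 0.117 counts per M over the range of depths.

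Ordered by group mean, the highest LEA3 and RAB16A levels were both in WT at ZT24 in SD, at 34.2 TPM and 12.9 TPM. The lowest LEA3 level was in phyB at ZT14 in LD (0.291 TPM) and the lowest RAB16A level in WT at ZT24 in LD (0.309 TPM), the same clock time as its highest. SALT was highest in elf3-1 elf3-2 at ZT6 in SD (363 TPM) and lowest in WT at ZT14 in LD (28.0 TPM). Most neighbours in these orders could not be separated by their replicates: library ranges overlapped for 19 of 24 neighbouring groups for LEA3, 23 of 24 for RAB16A and 24 of 24 for SALT. Over the 25 group means of log2(TPM + 1), Pearson's r was 0.79 between RAB16A and LEA3, 0.75 between LEA3 and SALT and 0.53 between RAB16A and SALT. These are descriptions, since each gene was read from the same libraries. In RNA from whole plants, fewer cells of a type and less RNA per cell cannot be told apart.

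**Figure D1:**
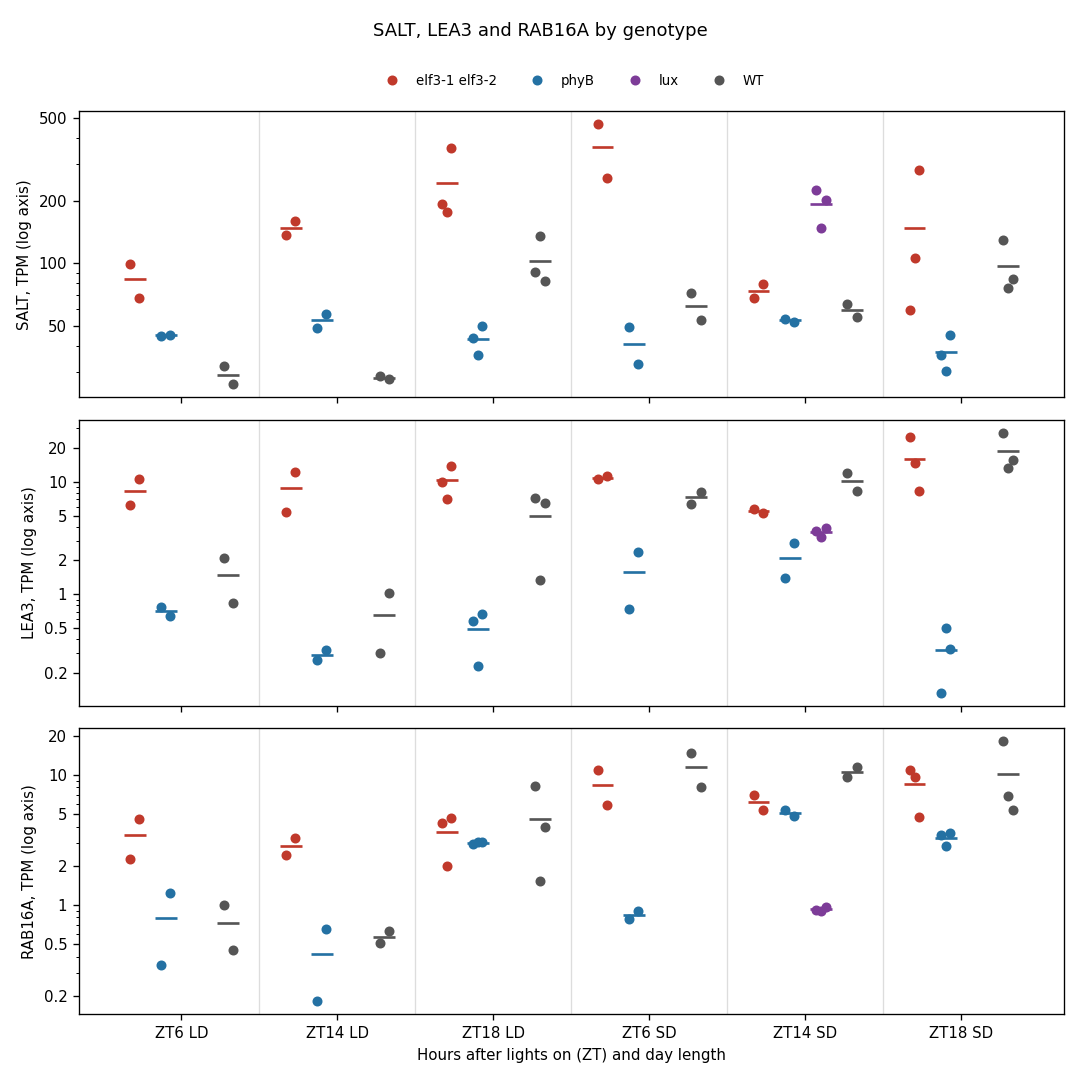
TPM of SALT, LEA3 and RAB16A (log axis) in each kept library of the LD and SD groups at ZT6, 14 and 18, 1 point per library with the group mean as a line; lux was sampled at ZT14 in SD alone. SALT points of elf3-1 elf3-2 reach 468 TPM, and LEA3 points of phyB stay at or under 2.84 TPM.

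The comparison of elf3-1 elf3-2 with WT asks how these genes stand in plants mutated in both ELF3 genes. SALT and LEA3 were higher in elf3-1 elf3-2 averaged over the 6 conditions and RAB16A did not pass the test. SALT was higher by 1.38 on the log2 scale (SE 0.186, 2.61-fold, adjusted p = 5.53e-07, edgeR), and LEA3 by 1.06 (SE 0.237, 2.09-fold, adjusted p = 7.32e-04). RAB16A differed by 0.41 (95% interval -0.18 to 1.01, adjusted p = 0.351). Among all tested genes 14.4% were higher and 13.7% lower in this comparison. With all 74 libraries the SALT value was 1.18 (adjusted p = 0.00165), and LEA3 no longer passed at 1.13 (adjusted p = 0.0829). Both calls held with any 1 of the 28 libraries of these genotypes and conditions left out.

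SALT was most abundant at ZT6 in SD, where elf3-1 elf3-2 had 468 and 258 TPM, against 71.9 and 53.0 TPM in WT. Both mutant libraries lay far above both WT libraries. The difference of 2.31 (log2) had an adjusted p of 5.44e-04 in edgeR, in a comparison where 8.98% of genes were higher, and it stayed past the threshold whichever of the 4 libraries was left out. At ZT14 in LD, as the lights went off, SALT stood at 137 and 159 TPM in elf3-1 elf3-2, against 28.5 and 27.6 TPM in WT (log2 2.38, adjusted p = 0.00335, with 2.75% of genes higher). The groups lie far apart there, but the test passed only with both WT libraries (adjusted p = 0.0619 and 0.0696 without WT replicate 2 or 3). At ZT18 in LD SALT had 193, 177 and 358 TPM in elf3-1 elf3-2, against 90.2, 135 and 81.8 TPM in WT (log2 1.22, adjusted p = 0.0261, with 7.77% of genes higher). All mutant libraries again lay above all WT ones, and the adjusted p was 0.0892, 0.104 and 0.201 without WT replicate 1, WT replicate 3 or elf3-1 elf3-2 replicate 3. How many of all genes were separated in this way was not counted. At ZT14 and ZT18 in SD the SALT difference did not pass, with log2 values of 0.29 and 0.66.

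LEA3 passed at ZT6 and ZT14 in LD and at no time in SD. At ZT14 in LD it had 5.41 and 12.3 TPM in elf3-1 elf3-2, against 0.300 and 1.02 TPM in WT (log2 3.64, adjusted p = 0.00287). At ZT6 in LD it had 6.18 and 10.5 TPM in elf3-1 elf3-2, against 2.11 and 0.837 TPM in WT (log2 2.41, adjusted p = 0.0307, with 3.22% of genes higher). The groups did not overlap at either of these times in LD (share of all genes not counted). Each call needed single libraries: at ZT14 the adjusted p was 0.0863 without WT replicate 2 and 0.0802 without elf3-1 elf3-2 replicate 3, and at ZT6 it was 0.0768 to 0.338 without any one of the 4. At ZT18 in LD LEA3 stood at 1.08 (adjusted p = 0.0969), and in SD it had log2 values of 0.40, -0.90 and -0.27 at ZT6, ZT14 and ZT18. No single time passed for LEA3 or SALT with all 74 libraries, with log2 values of 2.31 and 4.06 for LEA3 at ZT6 and ZT14 in LD and 1.94 for SALT at ZT6 in SD.

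RAB16A did not pass at any of the 6 conditions in elf3-1 elf3-2. Its log2 values were 2.22 and 2.26 at ZT6 and ZT14 in LD, each with wide intervals that begin near 0 (from 0.28 and from 0.18), and -0.25 at ZT18 in LD. In SD they were -0.66, -0.82 and -0.27 at ZT6, ZT14 and ZT18.

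In phyB plants LEA3 and RAB16A were lower than in WT on average and SALT did not pass. Over the 6 conditions LEA3 was lower by a log2 value of -2.44 (SE 0.433, 5.44-fold, adjusted p = 1.26e-05, edgeR) and RAB16A by -1.17 (SE 0.434, adjusted p = 0.0253). SALT differed by -0.32 (95% interval -0.70 to 0.06, adjusted p = 0.188). This comparison moved many genes, with 22.6% of those tested higher and 24% lower. The RAB16A call ended without WT replicate 2 at ZT6 in LD (adjusted p = 0.108), WT replicate 2 at ZT14 in LD (0.0565) or WT replicate 3 at ZT14 in LD (0.0878). None of the 3 passed with all 74 libraries: LEA3 stood at -1.25 (adjusted p = 0.142), RAB16A at -0.41 (adjusted p = 0.725) and SALT at 0.11.

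At ZT18, in the night, no library had been left out, and LEA3 was lower in phyB in both day lengths. At ZT18 in SD LEA3 had 0.134, 0.506 and 0.328 TPM in phyB, against 27.3, 13.1 and 15.7 TPM in WT. Every phyB library was under 1 TPM and every WT library above 13 TPM, a log2 value of -5.58 (SE 0.641, 47.9-fold, adjusted p = 2.10e-08), in a comparison where 11.5% of genes were lower. At ZT18 in LD LEA3 had 0.582, 0.232 and 0.673 TPM in phyB, against 7.23, 1.35 and 6.45 TPM in WT (log2 -3.03, adjusted p = 0.00165, with 15.1% of genes lower). The groups did not overlap (share of all genes not counted), and both calls held with any 1 library left out. Fitted with all 74 libraries these log2 values were -5.58 and -3.03, with adjusted p = 0.0181 and 0.153; the ZT18 libraries are the same in both fits.

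SALT was also lower in phyB at ZT18 in both day lengths, and RAB16A in SD. SALT at ZT18 in SD had 36.2, 30.2 and 45.1 TPM in phyB, against 129.9, 75.5 and 84.3 TPM in WT (log2 -1.41, adjusted p = 0.0107). At ZT18 in LD it had 43.4, 36.3 and 49.97 TPM in phyB, against 90.2, 135 and 81.8 TPM in WT (log2 -1.30, adjusted p = 0.0125). RAB16A at ZT18 in SD had 3.45, 2.84 and 3.58 TPM in phyB, against 18.2, 6.86 and 5.38 TPM in WT (log2 -1.63, adjusted p = 0.0110). None of these groups overlapped (share of all genes not counted), though every one of these calls depended on single libraries. RAB16A at ZT18 in LD did not pass (log2 -0.55, adjusted p = 0.524), with 2.95, 3.07 and 3.03 TPM in phyB inside the range of 8.24, 1.52 and 3.98 TPM in WT. Without WT replicate 1 in SD the adjusted p was 0.250 for RAB16A and 0.0729 for SALT, and without phyB replicate 2 in SD it was 0.0552 for SALT. In LD SALT had 0.0842 without WT replicate 2 and 0.0584 without phyB replicate 2. Fitted with all 74 libraries none of these 3 calls passed (adjusted p = 0.251 and 0.214 for SALT in SD and LD, and 0.385 for RAB16A in SD).

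At the other SD times RAB16A was lower in phyB at ZT6 and LEA3 at ZT6 and ZT14. At ZT6 in SD RAB16A had 0.777 and 0.889 TPM in phyB, against 14.8 and 8.14 TPM in WT (log2 -3.68, adjusted p = 3.35e-04, with 11.7% of genes lower), and the call held with any 1 library left out. LEA3 at that time had 0.749 and 2.39 TPM in phyB, against 6.40 and 8.08 TPM in WT (log2 -2.07, adjusted p = 0.0240). At ZT14 in SD LEA3 had 1.39 and 2.84 TPM in phyB, against 11.9 and 8.29 TPM in WT (log2 -2.23, adjusted p = 0.00411, with 14.4% of genes lower). The LEA3 calls ended without phyB replicate 2 at ZT14 (adjusted p = 0.0583) and, at ZT6, without WT replicate 2, WT replicate 3 or phyB replicate 2 (0.0544, 0.121 and 0.193). The left-out phyB replicate 1 at ZT6 in SD held 15.4 TPM of RAB16A and 31.4 TPM of LEA3, and with all 74 libraries the log2 values at ZT6 in SD were -0.63 for RAB16A and 1.08 for LEA3, and -0.70 for LEA3 at ZT14 in SD, none past the threshold. At ZT6 and ZT14 in LD, where WT itself was low, none of the 3 genes passed in phyB.

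**Figure D2:**
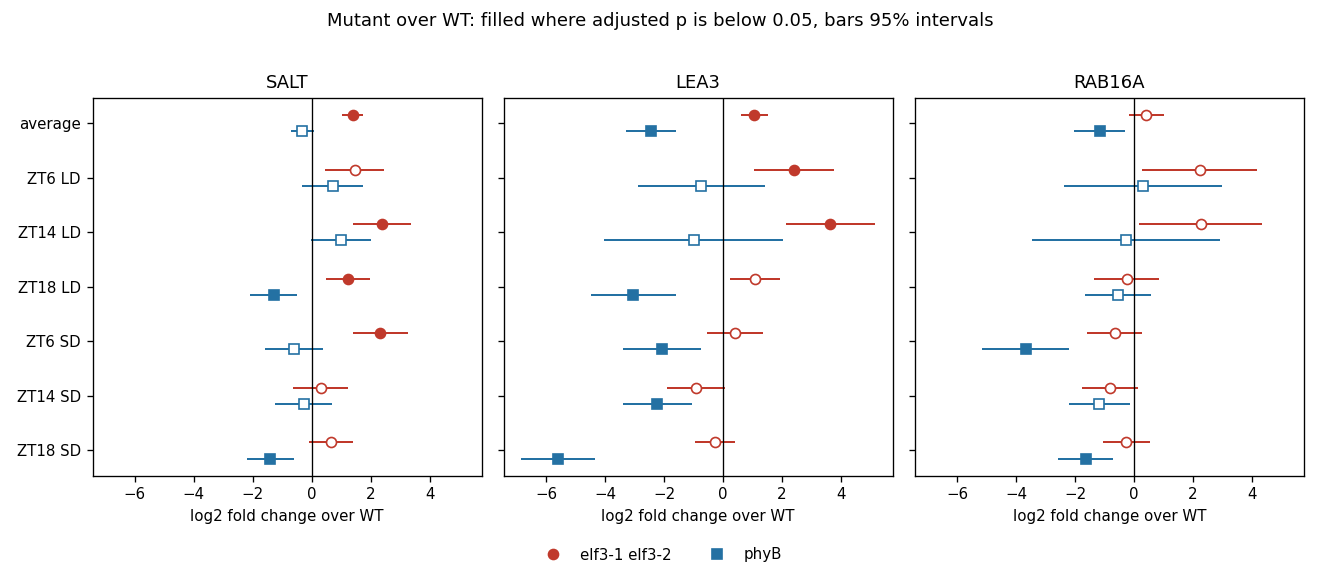
Log2 fold change over WT of SALT, LEA3 and RAB16A in elf3-1 elf3-2 (circles) and phyB (squares) in each condition and averaged over the 6, with 95% intervals as bars and filled points where the adjusted p is below 0.05. LEA3 in phyB at ZT18 in SD lies lowest, at -5.58, and the average of SALT in elf3-1 elf3-2 lies at 1.38.

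Set directly against each other, elf3-1 elf3-2 had more of all 3 transcripts than phyB on average. Averaged over the 6 conditions LEA3 was higher by 3.50 on the log2 scale (SE 0.296, 11.3-fold, adjusted p = 1.64e-12, edgeR), SALT by 1.70 (SE 0.188, adjusted p = 1.49e-09) and RAB16A by 1.58 (SE 0.323, adjusted p = 7.52e-05). In this comparison 25.5% of all genes were higher and 26.5% lower. By single condition LEA3 passed at 5 of 6, SALT at 4 and RAB16A at 2, and the shares of all genes there are not given here. At ZT14 in SD none passed, with log2 values of 1.33, 0.57 and 0.36. With any 1 library left out 3 calls of LEA3, 3 of SALT and 0 of RAB16A held. With all 74 libraries LEA3 and SALT passed at ZT18 in both day lengths alone, and RAB16A at no condition. In the kept libraries LEA3 levels of the 2 mutants did not overlap over all conditions, at 5.31 to 24.96 TPM in elf3-1 elf3-2 and 0.134 to 2.84 TPM in phyB. SALT levels did not overlap either, at 59.7 to 468 TPM in elf3-1 elf3-2 and 30.2 to 57.1 TPM in phyB. The share of all genes without such overlap was not counted. Left-out libraries broke this order: phyB replicate 1 at ZT6 in SD had 31.4 TPM of LEA3 and 284 TPM of SALT. The left-out elf3-1 elf3-2 replicate 1 at ZT14 in SD had 0.311 and 18.3 TPM. By expression the former lay nearest to elf3-1 elf3-2 at ZT6 in SD and the latter nearest to WT at ZT14 in LD, so their labels are in doubt. RAB16A did overlap, at 1.99 to 10.97 TPM in elf3-1 elf3-2 and 0.181 to 5.39 TPM in phyB, and with all 74 libraries its difference was 0.88 (adjusted p = 0.127).

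In the lux plants, mutated in the DNA-binding member of the Evening Complex, the 3 genes differed from WT in unlike directions at ZT14 in SD. The lux samples are numbered apart from all other samples of the series, and no WT sample is numbered with them. A difference between these sets of samples cannot be told apart from one of genotype. SALT had 226, 148 and 202 TPM in lux, against 63.5 and 54.9 TPM in WT. LEA3 had 3.67, 3.25 and 3.89 TPM in lux, against 11.9 and 8.29 TPM in WT. RAB16A had 0.914, 0.902 and 0.969 TPM in lux, against 9.57 and 11.5 TPM in WT. None of the 3 genes overlapped between the groups, and SALT was higher in lux while the other 2 were lower. The share of all genes without overlap was not counted for these groups. In edgeR the log2 values were 1.46 for SALT (adjusted p = 0.00442), -1.69 for LEA3 (adjusted p = 0.00284) and -3.69 for RAB16A (adjusted p = 4.16e-06), in a comparison where 36.8% of genes were higher and 30.5% lower. LEA3 did not pass with all 74 libraries, at -1.13 (adjusted p = 0.347), while SALT and RAB16A stayed past at 1.54 and -3.31.

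At the same time elf3-1 elf3-2 had 67.9 and 79.1 TPM of SALT, 5.76 and 5.31 TPM of LEA3 and 7.05 and 5.34 TPM of RAB16A. SALT was higher in lux than in elf3-1 elf3-2 by 1.17 on the log2 scale (adjusted p = 0.0184, edgeR) and RAB16A lower by -2.87 (adjusted p = 4.74e-04), where 34.9% of genes were higher and 29.5% lower. LEA3 did not pass at -0.79 (95% interval -1.83 to 0.25, adjusted p = 0.192). The SALT call ended without elf3-1 elf3-2 replicate 2 (adjusted p = 0.117) or 3 (0.0543) or lux replicate 1 (0.0542). RAB16A stood at -2.33 (adjusted p = 0.0908) with all 74.

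The lux libraries also differ from the others in tissue markers. The summed level of 4 root genes was 651 to 912 TPM in lux, against 6.95 to 23 TPM in the other 54 libraries, and that of 3 genes of dividing cells and meristem was 67.1 to 83 TPM, against 0.286 to 4.52 TPM. The root genes Lsi2, NRT2.1 and AMT1-2 and the meristem gene OSH1 were under 1 TPM in all 54 libraries other than lux, although the labels name whole plants. The summed leaf markers were 2540 to 3090 TPM in lux, against 4470 TPM or more elsewhere, and both seed markers were under 1 TPM in all 57. The part of these tissue differences in the lux results was not tested.

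WT levels of the 3 genes differed between times of day and between day lengths. Over the 12 WT groups r was 0.92 between RAB16A and LEA3, 0.83 between LEA3 and SALT and 0.73 between RAB16A and SALT. In LD all 3 genes passed the edgeR test for time of day, with adjusted p = 0.00342 for SALT, 0.00854 for LEA3 and 0.0145 for RAB16A, as did 67.4% of all genes. In SD SALT (adjusted p = 5.56e-06) and LEA3 (3.88e-06) passed and RAB16A did not (0.105), beside 76.2% of all genes. RAB16A lost its call in LD without WT ZT18 replicate 1 (adjusted p = 0.115), and passed in SD without WT ZT6 replicate 3 (0.0490) or ZT18 replicate 1 (0.0155). LEA3 and RAB16A did not pass in LD with all 74 libraries (0.105 and 0.140), nor LEA3 in SD (0.0532).

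In LD the 3 genes were low through the second part of the light period and highest in the night. SALT averaged 40.1 ± 10.7, 29.0 ± 4.21, 29.6 ± 11.2, 28.0 ± 0.660, 103 ± 28.9 and 62.8 ± 21.0 TPM at ZT2, 6, 10, 14, 18 and 24 (± standard deviation, n = 3 at ZT18 and 2 elsewhere). LEA3 averaged 4.22 ± 4.96, 1.47 ± 0.899, 2.35 ± 0.631, 0.660 ± 0.510, 5.01 ± 3.20 and 0.734 ± 0.0402 TPM at these times. RAB16A averaged 2.02 ± 2.85, 0.720 ± 0.380, 0.793 ± 0.138, 0.567 ± 0.0834, 4.58 ± 3.40 and 0.309 ± 0.437 TPM. Between ZT14 and ZT18, when the lights had gone off, all 3 were higher at the later time: SALT by 1.80 (log2, adjusted p = 0.00432), LEA3 by 2.71 (adjusted p = 0.0126) and RAB16A by 2.80 (adjusted p = 0.0235), in a step where 13.7% of genes were higher. By ZT24 LEA3 and RAB16A were lower again than at ZT18, by -2.18 and -3.60 (adjusted p = 0.0356 and 0.0139, with 18.2% of genes lower). The SALT step at ZT18 held with any 1 library left out and the other 4 did not, with adjusted p between 0.0534 and 0.151 without ZT14 replicate 2 or 3, ZT18 replicate 1 or 3, or ZT24 replicate 1 or 2. None of the 5 steps passed with all 74 libraries (adjusted p = 0.104, 0.151 and 0.139 for SALT, LEA3 and RAB16A at ZT18 over ZT14), and at ZT24 over ZT18 the log2 values were then 0.78 for LEA3 and -0.17 for RAB16A.

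In SD the highest means of all 3 genes were at ZT24, the end of the night. SALT averaged 141 ± 37.2, 62.5 ± 13.4, 51.6 ± 14.9, 59.2 ± 6.08, 96.6 ± 29.2 and 299.95 ± 182 TPM at ZT2, 6, 10, 14, 18 and 24 (± standard deviation, n as in LD). LEA3 averaged 15.96 ± 4.69, 7.24 ± 1.19, 4.38 ± 0.245, 10.1 ± 2.58, 18.7 ± 7.56 and 34.2 ± 2.66 TPM at these times. RAB16A averaged 6.60 ± 1.58, 11.5 ± 4.70, 4.01 ± 2.77, 10.5 ± 1.38, 10.2 ± 7.04 and 12.9 ± 2.73 TPM. From ZT18 on, SALT and LEA3 were higher at ZT24, by 1.85 (adjusted p = 2.86e-04) and 1.07 (adjusted p = 0.0120) on the log2 scale, with 21.5% of genes higher. After lights on both were lower at ZT6 than at ZT2, by -1.26 and -1.22 (adjusted p = 0.0415 and 0.0440, with 15.4% of genes lower), and RAB16A was lower at ZT10 than at ZT6, by -1.48 (adjusted p = 0.0356, with 12.9% of genes lower). Each of these SD steps lost its call without 1 or more single libraries. SALT at ZT24 rested on WT ZT24 replicate 1 (428 TPM, against 172 TPM in replicate 2), with a log2 value of 1.07 and an adjusted p of 0.0718 without it. For the other SD steps the adjusted p without a library lay between 0.0519 and 0.303, the libraries being ZT24 replicate 2 and ZT18 replicates 2 and 3 for LEA3 at ZT24, ZT2 replicate 1 and both ZT6 libraries for SALT, these and ZT2 replicate 2 for LEA3 at ZT6, and ZT6 replicate 2 or ZT10 replicate 2 for RAB16A. No SD step passed with all 74 libraries, with adjusted p = 0.0813 for SALT and 0.731 for LEA3 at ZT24, 0.286 and 0.387 at ZT6, and 0.279 for RAB16A at ZT10.

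**Figure D3:**
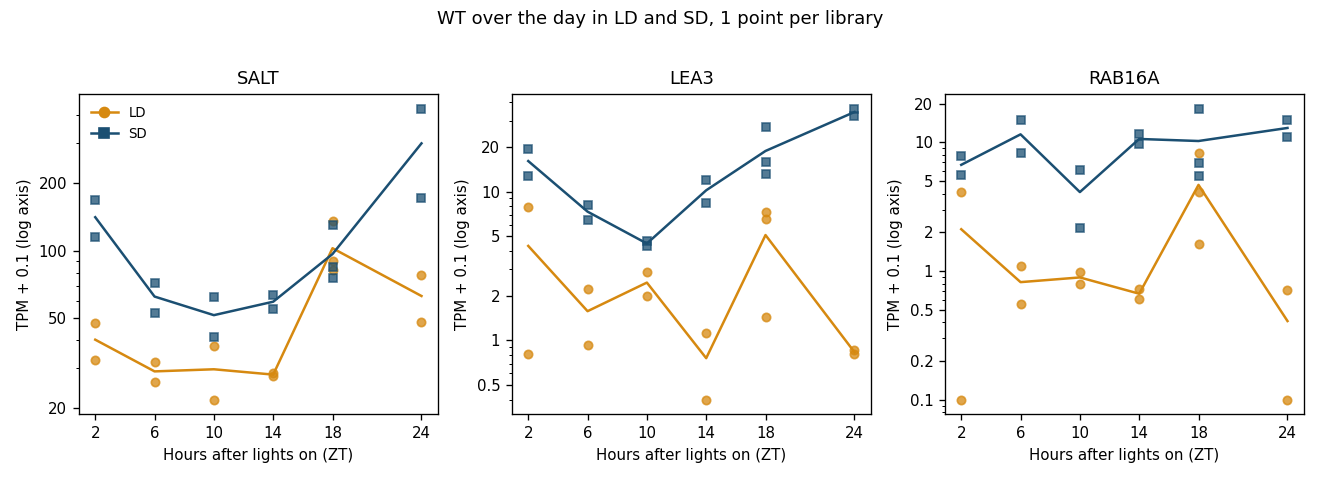
TPM + 0.1 (log axis) of SALT, LEA3 and RAB16A in WT at ZT2 to ZT24 in LD (circles) and SD (squares), 1 point per kept library with lines through the group means. The 2 lines lie furthest apart at ZT24, where LEA3 had 0.734 TPM in LD and 34.2 TPM in SD, and for SALT they meet at ZT18.

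The comparison of LD with SD asks how day length relates to these levels in WT. Over all 6 times SALT, LEA3 and RAB16A passed the edgeR test of LD against SD with adjusted p = 2.79e-05, 3.00e-10 and 8.24e-09, as did 66.6% of all genes. Averaged over the times, all 3 were lower in LD: RAB16A by -3.22 (SE 0.327, 9.32-fold, adjusted p = 1.64e-10), LEA3 by -2.76 (SE 0.263, adjusted p = 4.46e-11) and SALT by -1.26 (SE 0.198, adjusted p = 2.06e-06). Of all tested genes 24.3% were higher and 23.2% lower in LD. These averages held with any 1 library left out, and with all 74 RAB16A and SALT stood at -1.96 and -0.83 (adjusted p = 8.08e-04 and 0.0119) and LEA3 at -1.79 (adjusted p = 0.00174). SALT did not pass the test over all 6 times with all 74 (adjusted p = 0.0836).

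The largest log2 values were at ZT24, the end of the night. LEA3 had 0.763 and 0.706 TPM in LD, against 32.3 and 36.1 TPM in SD (log2 -5.32, adjusted p = 2.89e-08, with 14.6% of genes lower). RAB16A had 0.618 and 0 TPM in LD, against 14.8 and 10.9 TPM in SD (log2 -5.49, adjusted p = 1.49e-05), and SALT 77.7 and 48.0 TPM in LD, against 428 and 172 TPM in SD (log2 -2.37, adjusted p = 1.88e-04). The groups were far apart for all 3 genes. The 2 WT libraries left out at this time showed the opposite order, with 17.1 TPM of LEA3 in the one labelled LD and 0.420 TPM in the one labelled SD. With these included the log2 values were -1.79 for LEA3, -1.48 for RAB16A and -1.24 for SALT, none past the threshold.

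At ZT14 RAB16A had 0.508 and 0.626 TPM in LD, against 9.57 and 11.5 TPM in SD (log2 -4.19, adjusted p = 5.89e-05, with 20.5% of genes lower), and LEA3 0.300 and 1.02 TPM in LD, against 11.9 and 8.29 TPM in SD (log2 -3.83, adjusted p = 8.58e-05). At ZT6 RAB16A had 0.989 and 0.452 TPM in LD, against 14.8 and 8.14 TPM in SD (log2 -4.08, adjusted p = 1.42e-04, with 11.5% of genes lower). At ZT18 LEA3 had 7.23, 1.35 and 6.45 TPM in LD, against 27.3, 13.1 and 15.7 TPM in SD (log2 -2.07, adjusted p = 1.25e-04, with 17.7% of genes lower). Groups did not overlap in any of these 4 (share of all genes not counted), and each held with any 1 library left out. RAB16A at ZT6 (adjusted p = 0.111) and LEA3 at ZT18 (0.147) did not pass with all 74 libraries. SALT at ZT18 did not pass, at -0.02 (95% interval -0.77 to 0.72). At ZT10 no gene passed.

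The other 4 calls each depended on single libraries. LEA3 and SALT at ZT2 were lower in LD by -1.90 and -1.89 (adjusted p = 0.00412 and 0.00318, with 15.5% of genes lower), LEA3 at ZT6 by -2.42 (adjusted p = 0.0105) and RAB16A at ZT18 by -1.35 (adjusted p = 0.0212). Leaving out LD replicate 2 at ZT2 ended both calls there (adjusted p = 0.150 and 0.0586), as did SD replicate 2 for LEA3 (0.0671). LEA3 at ZT6 ended without LD or SD replicate 3 (0.155 and 0.0607). RAB16A at ZT18 ended without SD replicate 1, LD replicate 2 or LD replicate 3 (0.389, 0.154 and 0.0738). None of these 4 passed with all 74 libraries, with adjusted p between 0.199 and 0.411.

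The size of the day length effect changed with the time of day for all 3 genes in WT (adjusted p = 0.0227 for SALT, 0.00603 for LEA3 and 0.0185 for RAB16A, edgeR), as it did for 53.6% of all genes. For LEA3 the call held with any 1 library left out. For RAB16A it ended without LD ZT24 replicate 2 (adjusted p = 0.0554) or LD ZT18 replicate 1 (0.0733). For SALT it ended without 1 of 5 libraries, at 0.0559 to 0.0825: SD ZT24 replicate 1, LD ZT24 replicate 2, SD ZT18 replicates 2 and 3 and LD ZT18 replicate 2. None passed with all 74 (0.164 for RAB16A, 0.416 for LEA3 and 0.665 for SALT).

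In elf3-1 elf3-2 RAB16A was the 1 gene to pass the LD against SD average. Averaged over ZT6, ZT14 and ZT18 it was lower in LD by -1.22 (adjusted p = 0.00260, with 21.8% of genes lower), whereas LEA3 (-0.14, 95% interval -0.65 to 0.38) and SALT (-0.20, 95% interval -0.68 to 0.29) did not pass. By single times SALT passed at ZT6, with 99.2 and 67.8 TPM in LD, against 468 and 258 TPM in SD (log2 -2.12, adjusted p = 0.00138, with 9.15% of genes lower). RAB16A at ZT18 had 4.27, 1.99 and 4.65 TPM in LD, against 10.97, 9.67 and 4.74 TPM in SD (log2 -1.33, adjusted p = 0.0298, with 19.2% of genes lower), a call that ended without SD replicate 1 or 2 or LD replicate 2 (adjusted p = 0.114, 0.1004 and 0.129). None of these calls in elf3-1 elf3-2 passed with all 74 libraries, with adjusted p = 0.296 for the RAB16A average (log2 -0.91), 0.218 for SALT at ZT6 and 0.349 for RAB16A at ZT18. In phyB no average over day length passed, and RAB16A at ZT14 was the 1 call, with 0.181 and 0.652 TPM in LD, against 5.39 and 4.83 TPM in SD (log2 -3.30, adjusted p = 0.00865, with 17.8% of genes lower). It ended without LD replicate 2 (adjusted p = 0.0830). With all 74 libraries the RAB16A average in phyB passed as well, at -1.98 (adjusted p = 0.0266), against -1.22 (adjusted p = 0.133) with 57.

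Whether the day length difference itself differed between elf3-1 elf3-2 and WT was tested, and it did for LEA3. The effect of elf3-1 elf3-2 over WT was larger in LD than in SD by 2.64 on the log2 scale averaged over the 3 times (SE 0.467, adjusted p = 0.00145, edgeR), where 0.56% of all genes passed upward and 0.585% downward. LEA3 held this call with any 1 library left out. It also passed at ZT14 alone, at 4.55 (adjusted p = 0.00453, with 0.713% of genes upward), but not without WT LD replicate 2 (adjusted p = 0.0605) or elf3-1 elf3-2 LD replicate 3 (0.0527). RAB16A had 1.99 (adjusted p = 0.0894) and SALT 0.59 (adjusted p = 0.646). With all 74 libraries the LEA3 average was 2.71 with an adjusted p of 0.642. For phyB the same test passed for none of the 3, at 1.98 for RAB16A, 1.70 for LEA3 and 0.90 for SALT.

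**Figure D4:**
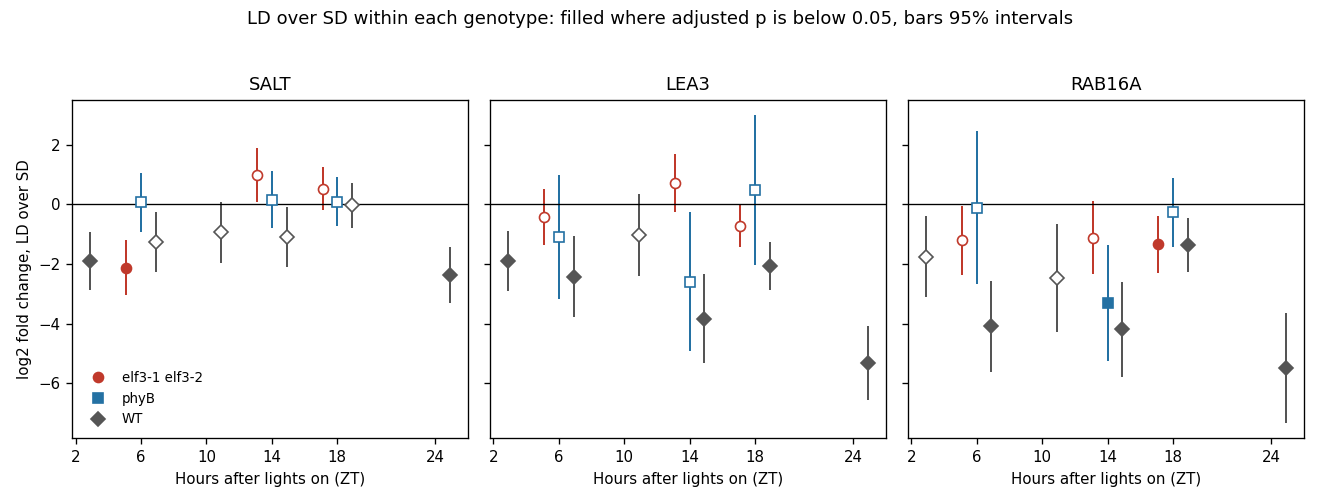
Log2 fold change of LD over SD for SALT, LEA3 and RAB16A in elf3-1 elf3-2 (circles), phyB (squares) and WT (diamonds) by time, with 95% intervals as bars and filled points where the adjusted p is below 0.05. LEA3 in WT lies below 0 at all times, at -2.42, -3.83 and -2.07 at ZT6, ZT14 and ZT18 and at -5.32 at ZT24. In elf3-1 elf3-2, sampled at ZT6, ZT14 and ZT18 alone, it lies between -0.72 and 0.72.

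Genes around the 3 in the ABA and drought pathway were read from 9 lists, of which 43 genes matched the RefSeq gene table by symbol or synonym and 40 had enough counts to test. In elf3-1 elf3-2 14 of 40 were higher and 4 lower than in WT, with a median log2 value of 0.07 against -0.00 over all genes, beside 14.4% and 13.7% of all genes. All 5 genes of ABA synthesis and breakdown were higher, among them ZEP, zeaxanthin epoxidase (0.84, adjusted p = 3.54e-12), and NCED3, whose enzyme makes the first ABA-specific precursor (0.74, adjusted p = 1.21e-06). The rest of this list, ABA8OX1, ABA8OX2 and ABA8OX3, are genes of ABA breakdown. NCED1, NCED4 and NCED5 did not match the RefSeq gene table and were not read. The phosphatase gene PP2C68 (0.89) and the kinase gene SAPK9 (0.90) were higher too, as was the aquaporin gene PIP1-3 (0.88), beside 4 lower aquaporin genes of 7. Of the 5 dehydrin and LEA genes 1 passed, LIP9 (0.40, adjusted p = 5.47e-04). LIP9 did not pass with all 74 libraries (adjusted p = 0.158) and NCED3 stood at -0.44 (adjusted p = 0.501).

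In phyB 20 of 40 were higher and 14 lower than in WT (median 0.15), beside 22.6% and 24% of all genes. Of the 5 dehydrin and LEA list genes 4 were higher in phyB and 0 lower on average. At ZT18 1 of 5 was higher in SD and 2 in LD, and the share of all genes higher there is not given here. The medians of these 5 genes at ZT18 were 0.36 in SD and 0.35 in LD, against 0 over all genes. RAB16C, a dehydrin gene close to RAB16A on chromosome 11, had 6.31 to 52.2 TPM in phyB (median 19.6) and 1.29 to 14.7 TPM in WT (median 5.32), a log2 value of 1.93 (SE 0.0865, adjusted p = 7.59e-21). LIP9 was higher by 0.26, while RAB25 and LEA3-2 passed at low levels. RAB25 had a median of 0.502 TPM in phyB (at most 1.17) and 0.385 TPM in WT (at most 6.22). LEA3-2 had a median of 0.625 TPM in phyB (at most 2.97) and 0.179 TPM in WT (at most 1.11). Of the 57 libraries, 11 had 0 TPM of RAB25 and 9 had 0 TPM of LEA3-2. With all 74 libraries RAB16C passed at 1.00 (adjusted p = 0.00503), while RAB25, LIP9 and LEA3-2 did not (adjusted p = 0.223, 0.189 and 0.219). NCED3 had 10.7 to 24.2 TPM in phyB (median 14.7) and 1.17 to 18.5 TPM in WT (median 2.70), a log2 value of 3.00 (SE 0.0874, adjusted p = 9.10e-27), and 1.36 (adjusted p = 0.00655) with all 74 libraries.

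The PP2C phosphatase genes, which act against ABA signalling, were higher in phyB for 7 of 9, with PP2C49 at 2.12 and PP2C30 at 0.87, and 1 was lower, PP2C51 (-0.71), a call that ended without WT replicate 2 at ZT6 in SD (adjusted p = 0.0704). All 4 drought transcription factor genes were lower, among them NAC6 (-0.76) and NAC5 (-0.64), as were 3 of 5 SAPK kinase genes, with SAPK1 at -0.73, and 5 of 7 aquaporin genes, with PIP1-3 at -0.70. With all 74 in the fit PP2C49 stood at 0.97 and PP2C30 at 0.51, and PP2C51 and PIP1-3 did not pass (adjusted p = 0.306 and 0.393). In that fit 8 list genes passed upward and 2 downward for elf3-1 elf3-2, and 5 upward and 4 downward for phyB. The shares of all genes passing in that fit are not given here, so these counts cannot be set beside them.

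In WT 14 of 40 list genes were higher in LD than in SD and 11 lower (median 0.08 against 0.00 over all genes), beside 24.3% and 23.2% of all genes. LIP9 was lower in LD (-0.66, adjusted p = 1.05e-07) in the direction of the 3 genes, whereas RAB16C was higher (0.62, adjusted p = 8.82e-06). RAB16B, the gene next to RAB16A, was listed at 0 to 6.50 TPM and passed as lower in LD, but not without WT ZT2 SD replicate 2. ABA8OX1, whose enzyme breaks down ABA, was higher in LD (0.93, adjusted p = 1.25e-07). RAB16C and ABA8OX1 did not pass with all 74 libraries (adjusted p = 0.594 and 0.592). In that fit 5 list genes were higher and 5 lower, and the shares over all genes are not given here. P5CS1, of proline synthesis, and the aquaporin gene PIP2-6 were lower (-0.72 and -0.75). In lux 14 of 40 were higher and 11 lower than in WT, with a median log2 value of -0.0072 against 0.08 over all genes, beside 36.8% and 30.5% of all genes. Named for their size were ABA8OX1 at 2.08, ZEP at 1.98, PIP1-3 at 2.28, LIP9 at 0.75 and PP2C30 at -1.66, beside the root marker levels given above. LIP9 did not pass without WT replicate 3 (adjusted p = 0.0708), nor ABA8OX1 with all 74 libraries (0.0528). The test of day length by genotype in elf3-1 elf3-2 called 0 list genes upward and 4 downward, beside 0.56% and 0.585% of all genes.

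**Figure D5:**
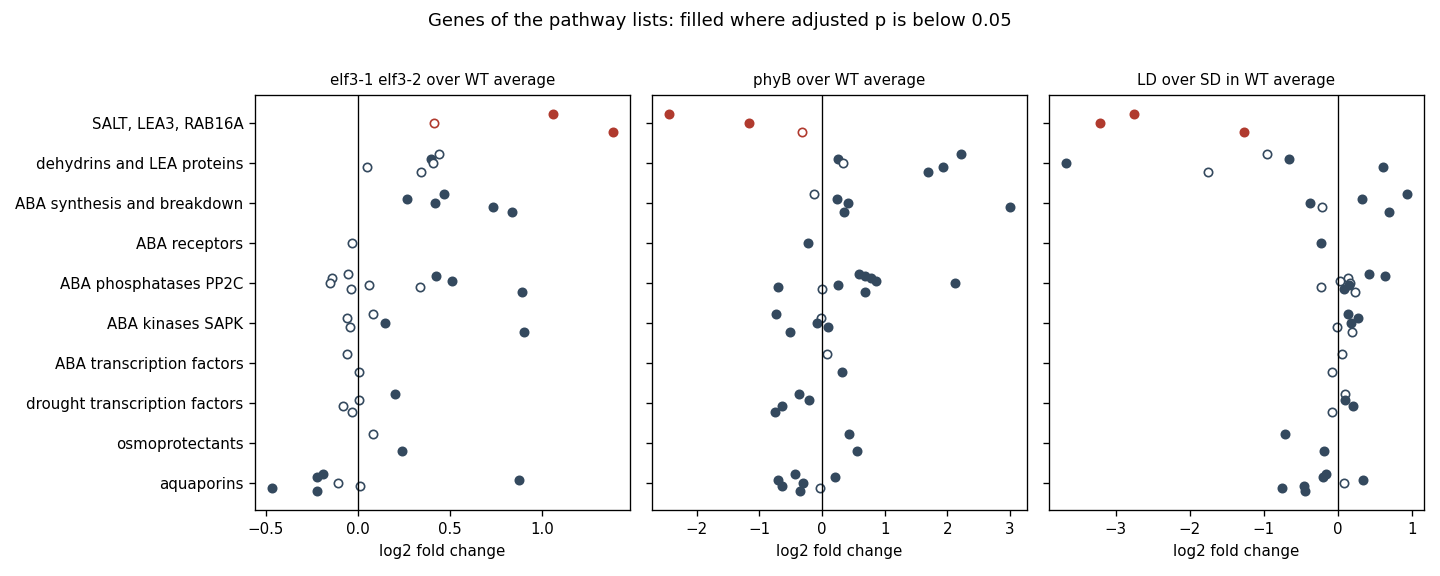
Log2 fold change of every tested gene of the 9 lists, with SALT, LEA3 and RAB16A in the top row, in the comparisons of mutants with WT and of LD with SD; points are filled where the adjusted p is below 0.05. Dehydrin and LEA list genes of phyB lie to the right, with RAB16C at 1.93, while LEA3 and RAB16A lie to the left, at -2.44 and -1.17.

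How reads shared by the close RAB16 copies were divided is not given in the sources used here, so the RAB16A and RAB16C values are uncertain to that extent. RAB16D had 0 counts in 31 of 57 libraries and RAB16B in 7.

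The genes whose group means ran most like a member's were taken from 18554 genes with a mean of at least 10 TPM in some group. Over the 25 groups Pearson's r of log2(TPM + 1) was highest with Os11g0113700 for RAB16A (0.86), with Os04g0659300 for LEA3 (0.88) and with Os08g0544400 for SALT (0.89). For RAB16A the next were Os01g0124650, Os07g0539300, Os08g0389700 and Os04g0360500, for LEA3 Os02g0671100, Os03g0734300, Os11g0260100 and Os04g0405300, and for SALT Os10g0504900, Os11g0702100, Os08g0508000 and Os02g0112900, all between 0.81 and 0.88. No list gene was among these.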

How the data were processed

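Gene counts and TPM of 74 RNA-seq libraries of rice were used as deposited by the authors, with 37849 genes in each of the 2 tables. The count columns hold raw whole-number counts per gene as deposited, and the TPM columns TPM as scaled by the authors. The submitters' processing notes name HISAT2, StringTie and the IRGSP-1.0 build, with no versions; how reads were counted is not given in the sources used here. RNA was extracted with RNeasy and libraries made with a directional NEBNext kit, per the labels. 1 deposited column is not that of a labelled sample and was not used. The WT columns named ZT00 were matched to the labels' ZT24.

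Of the 74 libraries 17 were left out by genotype, time and replicate number, 16 of which lay nearer to another group, which leaves 57. Differences were tested on counts with edgeR 4.0.16 in R 4.3.3: TMM scaling, filterByExpr (28905 genes tested, 8944 left out), 1 mean for each of 25 groups, glmQLFit with robust estimation and glmQLFTest. All groups share one estimate of the spread, with 32 residual degrees of freedom. Averages weigh conditions alike. F tests over several contrasts were used for the time of day, for day length at any time and for their interaction. The Benjamini-Hochberg method adjusted p-values across every tested gene, and 0.05 was the threshold. Standard errors come from the log2 fold change and the F statistic, and 95% intervals assume a normal distribution. TPM serve for levels. Intervals and floors cover counting error or library spread only, and a count floor is 3 counts per library. The procedure was tested on simulated data.

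The 3 genes, the lists, the 17 libraries and the named-gene rule (up to 4 list genes past the threshold by size of change in a list, and the 5 genes most like each of the 3) were chosen with earlier results of these data known. Of 59 list genes written by identifier, 43 matched the RefSeq gene table and lie within 2 percentage points of its gene order along their chromosome. Its assembly differs from IRGSP-1.0, so no coordinates are given, and sequences were not used here. Replicate numbers were not used as pairs: of 5 comparisons with 3 same-numbered pairs, 1 had all correlations of deviations over 0.1. Alternatives were all 74 libraries, DESeq2 1.42.0, DESeq2 size factors in edgeR, no filter on low counts, limma 3.58.1 on log2(TPM + 1) with and without a filter and on log2(TPM + 0.1), replicate number as a block, estimateDisp before the fit, only the groups compared, each library left out in turn, and, chosen after seeing the data, the fit without the 3 lux libraries.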

Additional observations from a re-analysis of the deposited data

Results flagged for a closer look

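The day length effect in WT differed between times of day for all 3 genes by the interaction test in edgeR, with adjusted p = 0.0185 for RAB16A, 0.00603 for LEA3 and 0.0227 for SALT, where 53.6% of all genes passed the same test.

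The effect of elf3-1 elf3-2 over WT on LEA3 differed between LD and SD, by 2.64 on the log2 scale averaged over 3 times and by 4.55 at ZT14. The change stood at 2.41, 3.64 and 1.08 in LD at ZT6, ZT14 and ZT18 and at 0.40, -0.90 and -0.27 in SD.

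The 4 left-out libraries labelled phyB replicate 1 held more SALT than any kept phyB or WT library of their time and day length, and more LEA3 than any such phyB library. For RAB16A this was not so at ZT14 in LD, with 0.538 TPM, against 0.652 TPM in a kept phyB library. The one at ZT6 in SD had 15.4 TPM of RAB16A, 31.4 TPM of LEA3 and 284 TPM of SALT, against highest kept phyB values over all conditions of 5.39, 2.84 and 57.1 TPM. The one at ZT6 in LD had 3.95 TPM of LEA3 and 110.0 TPM of SALT. SALT stood at 97.8 TPM in the one at ZT14 in SD and at 75.9 TPM in the one at ZT14 in LD. All 4 lay nearest to the elf3-1 elf3-2 group of their time and day length. Kept elf3-1 elf3-2 libraries at ZT6 in SD held 258 and 468 TPM of SALT, a range that includes the 284 TPM. At the other conditions the SALT values lay outside the range of the kept elf3-1 elf3-2 libraries.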

How the results depend on the processing

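With all 74 libraries 13 of 26 main results past the threshold no longer passed: LEA3 in elf3-1 elf3-2 over WT (1.13), RAB16A and LEA3 in phyB over WT (-0.41 and -1.25), RAB16A in elf3-1 elf3-2 over phyB (0.88), LEA3 in lux over WT (-1.13), RAB16A in lux over elf3-1 elf3-2 (-2.33), time of day in LD for RAB16A and LEA3 (adjusted p = 0.140 and 0.105) and in SD for LEA3 (0.0532), day length for SALT (0.0836) and day length by time for RAB16A, LEA3 and SALT (0.164, 0.416 and 0.665). SALT in phyB over WT changed sign, to 0.11. So did NCED3 in elf3-1 elf3-2 (-0.44), LEA3 in phyB over WT at ZT6 in SD (1.08), RAB16A and LEA3 in elf3-1 elf3-2 over phyB at ZT6 in SD (-0.040 and -0.68) and LEA3 in WT LD at ZT24 over ZT18 (0.78). The cause was not tested. With only the groups compared in the fit, time of day in LD for RAB16A and LEA3 (0.145 and 0.156) and day length by time for RAB16A (0.157) did not pass, while SALT in phyB over WT (-0.32) and LEA3 in lux over elf3-1 elf3-2 (-0.82) did; fewer libraries then estimate the spread. limma on log2(TPM + 0.1) lost LEA3 in lux over WT (-1.44). The other 8 alternatives changed no main call.

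With 1 library left out, RAB16A in phyB over WT ran from -1.38 to -1.05 and SALT in lux over elf3-1 elf3-2 from 1.03 to 1.33. Adjusted p ran over 0.00197 to 0.115 for RAB16A by time in LD, 0.0155 to 0.418 in SD, and 0.00133 to 0.0733 for RAB16A and 0.00490 to 0.0825 for SALT in day length by time. Of the 5 calls of ZT18 over ZT6 none held with any 1 library left out. With replicate number as a block no main call changed (SALT in elf3-1 elf3-2 over WT 1.38, LEA3 in phyB over WT -2.44). Of other values, RAB16A then passed in LD over SD in WT at ZT2 (-1.85, adjusted p = 0.0186) and ZT10 (-2.46, 0.0313), in phyB over WT at ZT14 in SD (-1.18, 0.0451) and in the averaged test of day length by genotype in elf3-1 elf3-2 (1.97, 0.0367), while SALT in WT SD at ZT6 over ZT2 no longer did (-1.20, 0.0558). RAB16A and LEA3 have few counts in many libraries, which limits their single-time values.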
